A study of Mus musculus with 5 samples.

Results

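The ID and Twist genes encode 6 helix-loop-helix transcription factors, Id1, Id2, Id3, Id4, Twist1 and Twist2, whose transcripts were followed in cultured mouse rib chondrocytes. The members were all 10 probe sets of the deposited table annotated to exactly these gene symbols, out of 45101 probe sets, or 6 of 18193 genes. All 6 genes lay above the filter on dim genes, which kept 11075 genes. The 5 samples were primary chondrocytes from the ribs of FVB mice taken at embryonic day 18.5, 1 array each for days 2, 6, 9, 12 and 15 of culture. All of them had been plated on gelatin-coated dishes in serum-containing medium with ascorbic acid and beta-glycerophosphate, and carried no genetic change or further treatment that the labels name. The labels do not say how many embryos were pooled or whether the dishes came from a common isolate, and with a single array per day no difference between days has a replicate error. The genes were chosen with their courses on these same arrays known, so their values are given as a description, with no test.

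ID proteins have a helix-loop-helix domain for pairing but lack the basic region that contacts DNA. They pair with E proteins, the broadly expressed basic helix-loop-helix factors, and keep them and their partners off the E-box, whose letters are CANNTG. Their genes are early targets of bone morphogenetic protein (BMP) signalling through SMAD proteins, which also drives cartilage and bone formation. TWIST1 and TWIST2 do have a basic region, bind E-boxes as dimers, and in mouse skeletal precursors hold back osteoblast differentiation by binding the bone factor RUNX2. In people, mutations of TWIST1 cause early fusion of the skull sutures.

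Between day 2 and day 15 the 2 Twist genes went opposite ways, and 2 of the 4 ID genes passed 2-fold downwards. Twist1 stood 4.49-fold above its day 2 level on day 15, Twist2 at least 22.7-fold lower, Id1 2.54-fold lower and Id2 2.46-fold lower. Id3 was 1.63-fold lower, and Id4 was level at 1.03-fold higher. On the log2 scale Id1 minus Id3 was -0.64 and Id2 minus Id3 -0.59, near the SD of 0.62 between probe sets described below. The 2-fold line therefore does not set Id1 and Id2 clearly apart from Id3. At a threshold of 2-fold, 1 of the 6 genes was higher and 3 were lower at day 15, against 16.2% and 11.6% of all 11075 genes. These shares are printed for scale only, because this comparison was in view when the genes were chosen.

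The promoter windows of members with contrasting courses are shown to give the DNA context of these genes. RefSeq windows from 250 bases before to 50 bases after the gene start were held for 5 of the 6 genes, on build GRCm38.p6, and those of Id2, Id4, Twist1 and Twist2 follow. Capitals mark the E-box letters CANNTG and the letters GGCGCC, a sequence bound by BMP-activated SMAD proteins in some ID promoters. Both motifs read the same on either strand and did not overlap in these windows. The window of Id2 is chr12:25096043-25096342 on the minus strand, that of Id4 chr13:48260866-48261165 on the plus strand, that of Twist1 chr12:33957421-33957720 on the plus strand and that of Twist2 chr1:91801211-91801510 on the plus strand.
Id2: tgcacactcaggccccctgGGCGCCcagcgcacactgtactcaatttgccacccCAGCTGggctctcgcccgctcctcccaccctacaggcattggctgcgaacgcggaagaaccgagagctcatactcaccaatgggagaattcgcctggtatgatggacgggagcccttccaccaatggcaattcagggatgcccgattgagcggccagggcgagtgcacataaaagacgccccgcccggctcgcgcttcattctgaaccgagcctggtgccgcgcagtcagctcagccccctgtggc
Id4: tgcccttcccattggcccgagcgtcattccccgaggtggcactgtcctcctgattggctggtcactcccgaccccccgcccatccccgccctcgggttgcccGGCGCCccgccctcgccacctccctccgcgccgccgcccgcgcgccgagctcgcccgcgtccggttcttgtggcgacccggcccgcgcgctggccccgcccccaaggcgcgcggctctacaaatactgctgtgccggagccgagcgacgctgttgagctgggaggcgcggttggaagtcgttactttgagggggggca
Twist1: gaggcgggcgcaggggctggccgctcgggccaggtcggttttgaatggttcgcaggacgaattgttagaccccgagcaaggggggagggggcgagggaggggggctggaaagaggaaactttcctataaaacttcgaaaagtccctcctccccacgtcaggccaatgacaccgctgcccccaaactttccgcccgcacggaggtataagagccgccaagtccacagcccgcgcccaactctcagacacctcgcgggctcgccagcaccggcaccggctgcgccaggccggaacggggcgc
Twist2: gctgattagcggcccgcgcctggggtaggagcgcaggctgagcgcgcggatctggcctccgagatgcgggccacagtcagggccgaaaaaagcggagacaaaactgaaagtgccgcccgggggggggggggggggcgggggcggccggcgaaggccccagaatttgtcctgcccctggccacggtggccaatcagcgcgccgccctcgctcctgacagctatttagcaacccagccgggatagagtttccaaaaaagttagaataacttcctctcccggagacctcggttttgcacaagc

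The letters CANNTG were found in 1 of the 5 member windows, that of Id2, as CAGCTG starting 196 bases before the gene start. Of 32851 mouse promoter windows of the same length, 72.3% held CANNTG. The letters GGCGCC were found in 2 of the 5 member windows, those of Id2 and Id4, against 11.9% of all windows. G and C made up 63.3% of the Id2 window and 73.3% of the Id4 window, and the share over all windows was not matched for this. Id2 was lower at day 15 and Id4 level, and no window was held for Id1. Whether these letters bear on the courses was not tested. The windows of Id3, Twist1 and Twist2 held neither motif. These are matches of letters in a short window and say nothing of binding.

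Id1 was lowest at the last 2 days. Its single probe set had intensities of 9276, 5392, 5599.9, 3884 and 3656 on days 2, 6, 9, 12 and 15. Day 2 was the highest day and every later day was lower, by 1.72-fold at day 6, 1.66-fold at day 9, 2.39-fold at day 12 and 2.54-fold at day 15. The spread between probe sets of a gene was taken to gauge how uncertain a difference is: across 6988 genes with at least 2 probe sets, a single probe set's log2 difference between days 15 and 2 had an SD of 0.62. The log2 difference of Id1 at day 15 was -1.34, which is larger than that SD. As in every bulk sample, fewer cells of a type and less RNA per cell cannot be told apart here. Days 6 and 9 were separated by 0.05 on the log2 scale and days 12 and 15 by 0.09, both under the SD of 0.44 and 0.41 for those pairs of days. The order was therefore day 2, then days 9 and 6, then days 12 and 15, with the step between day 6 and day 12 (0.47) close to its SD of 0.46.

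Id2, which is also a pairing partner of the retinoblastoma protein in mammalian cells, reached its low level by day 6. Its brightest probe set gave 9273, 3369.8, 3861, 2851 and 3772 over the 5 days, so that day 6 lay 2.75-fold below day 2. The second probe set had 4717, 2036, 1963, 1534 and 1724, and was 2.32-fold lower at day 6 and 2.74-fold lower at day 15. Both probe sets put day 2 highest and day 12 lowest. On the brightest probe set, neighbouring days after day 2 in the order of levels (9, 15, 6, 12) were separated by at most 0.24 on the log2 scale, less than the spread between probe sets. Against day 6, day 15 was 1.12-fold higher on the brightest probe set and 1.18-fold lower on the second, so on these 2 probe sets the larger difference lay between days 2 and 6. The dimmest probe set had 152, 155, 126, 81.0 and 59.7, with days 2 and 6 alike and day 15 below the floor of 73.1, at least 2.07-fold lower than day 2, so on this probe set the difference lay after day 6.

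Id3 held its level until day 12. Its single probe set had 8458, 8225, 7794, 7598 and 5181 over the 5 days. Days 2 to 12 lay within 0.15 of each other on the log2 scale, and day 15 was 1.47-fold lower than day 12, a log2 difference of -0.55 against a probe-set SD of 0.41. The difference between days 15 and 2, -0.71 on the log2 scale, was close to its SD of 0.62 and below the 2-fold threshold.

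Id4 stayed within 2-fold over the 5 days on each probe set, and on its brightest no step between neighbouring levels exceeded the spread between probe sets. The brightest of its 3 probe sets had 1493, 2119.5, 1508, 1578 and 1531, with day 6 the highest at 1.42-fold over day 2. The second had 627, 998, 928, 971 and 687, again highest at day 6, and another 482, 481, 445, 515 and 316, highest at day 12. By that last probe set day 15 was 1.53-fold lower than day 2, and by the second 1.10-fold higher, so the probe sets differ in sign and none reached 2-fold. On both dimmer probe sets the step between days 15 and 9, 0.43 and 0.49 on the log2 scale, was slightly above its SD of 0.42. Day 15 against day 12 was -0.50 on the second and -0.71 on the dimmest, both past the SD of 0.41, but -0.04 on the brightest. Day 6 against day 2 on the second was 0.67, past its SD of 0.55.

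**Figure D1:**
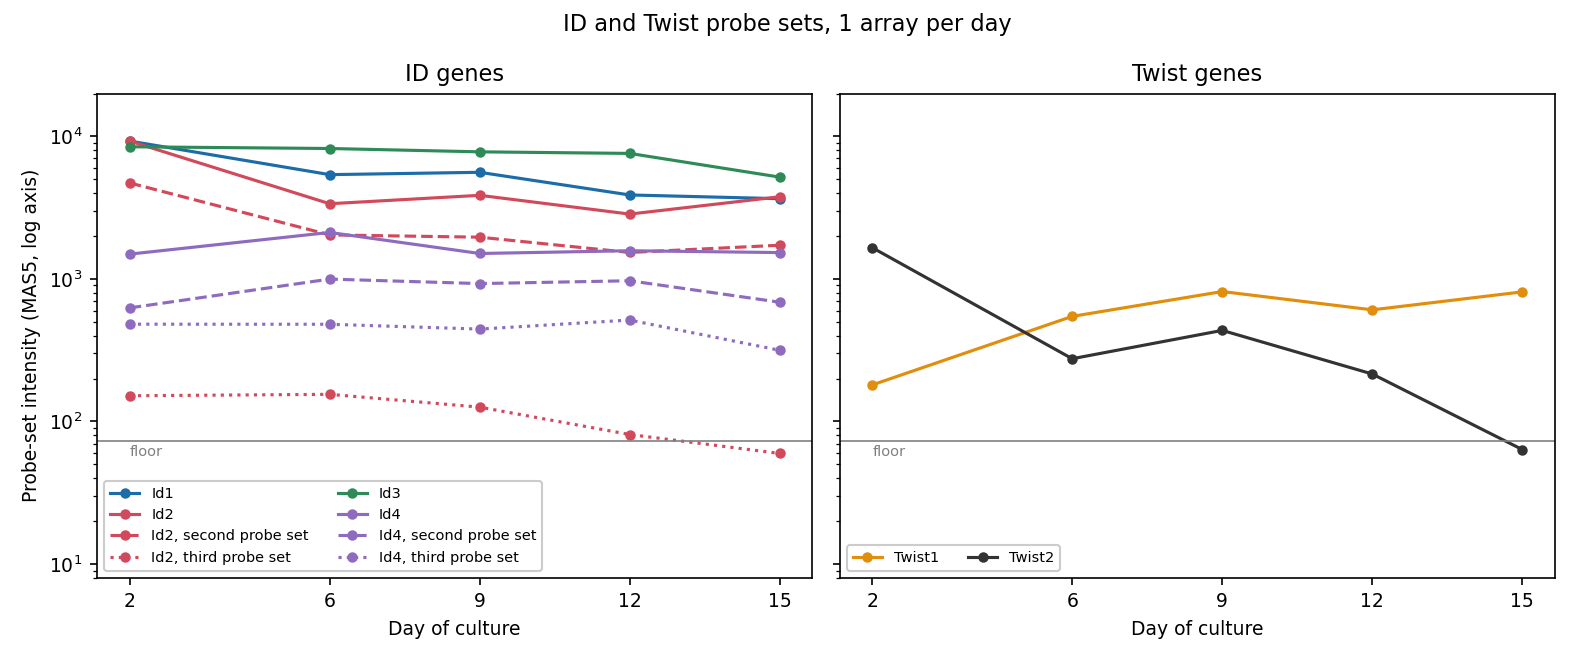
Intensity of every ID (left) and Twist (right) probe set on a log axis against day of culture, 1 array per day; the grey line is the floor of 73.1. Id1 and the brighter 2 probe sets of Id2 are highest at day 2, Id3 drops at day 15, and Twist1 and Twist2 run opposite ways; levels of different probe sets cannot be compared with each other.

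Twist1 was the only member that was higher on every later day by at least 2-fold. Its single probe set had 181, 546, 816, 607 and 811 over the 5 days, which is 3.03-fold, 4.52-fold, 3.36-fold and 4.49-fold above day 2. Day 2 was separated from the next lowest day, day 6, by 1.60 on the log2 scale. Among days 6 to 15 the highest, day 9, and the lowest, day 6, differed 1.49-fold. The order was days 9 and 15, then days 12 and 6, then day 2, and the step between days 15 and 12 (0.42) was close to its SD of 0.41. At day 6 the gene had reached 73.7% of its whole log2 difference between days 15 and 2.

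Twist2 was lower on every later day. Its single probe set had 1658, 276, 436, 215 and 63.6 over the 5 days, the last below the floor. It was 6.01-fold lower at day 6 than at day 2, 3.81-fold lower at day 9, 7.70-fold lower at day 12 and at least 22.7-fold lower at day 15. Of its neighbouring days only days 6 and 12 lay within the spread between probe sets, and day 9 stood above day 6 by 1.58-fold. A second drop followed day 9: day 12 was 2.02-fold lower than day 9 and day 15 at least 2.95-fold lower than day 12. The log2 difference of Twist2 between days 15 and 2, -4.50, is a bound set by the floor, so it was given no rank among genes. For Twist1, with 2.17, 10578 of the kept genes had a lower and 496 a higher value.

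Because both genes were read on the same arrays, their ratio does not depend on how an array was scaled. The signal ratio of Twist1 to Twist2 was 18.2 times its day 2 value at day 6, 17.2 times at day 9, 25.9 times at day 12 and at least 102 times at day 15. On the log2 scale the shift was 4.19 at day 6 and at least 6.67 at day 15, and what was added after day 9 came with lower Twist2 signal. The same reading for 2 ID genes put the ratio of Id2 to Id3 at 0.37 of its day 2 value at day 6 and 0.66 of it at day 15. At day 12 it was 0.34 of its day 2 value, the lowest of the 5 days. Days 6 and 12 (log2 shifts of -1.42 and -1.55) were too close to be told apart. The courses of these genes were closer again on the last array. These ratios use the brightest Id2 probe set, and on its dimmest day 6 was level with day 2 (log2 difference 0.03).

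**Figure D2:**
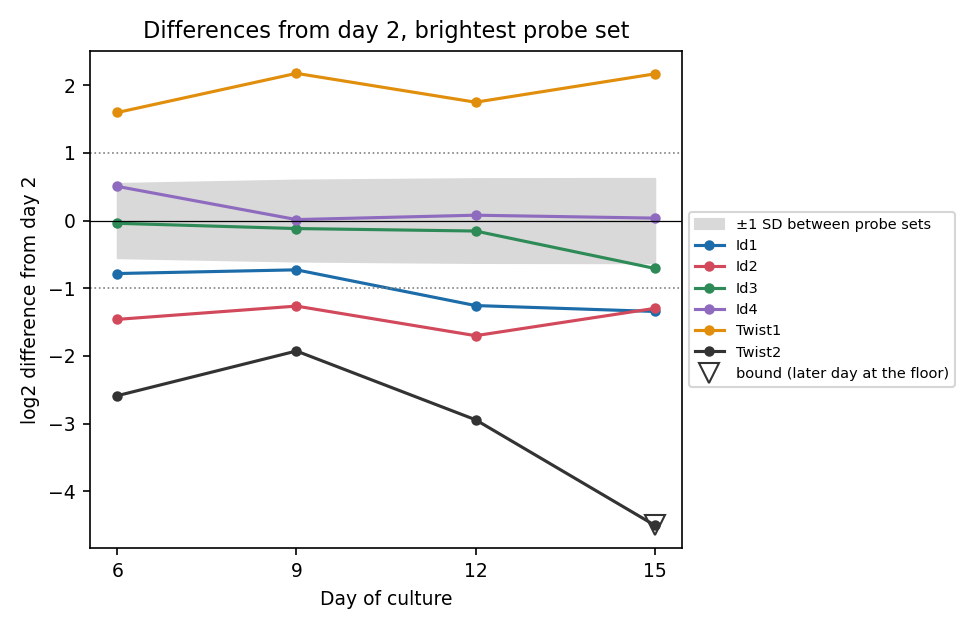
Log2 difference of each later day from day 2 for the brightest probe set of each gene; the grey band is ±1 SD between probe sets of a gene, dotted lines mark 2-fold, and the open triangle marks a bound. Twist1 lies above and Twist2 and Id2 lie below the 2-fold lines on all later days, Id1 passes the lower line from day 12, and Id3 and Id4 stay within the 2-fold lines.

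Counted at 2-fold, more members differed over the first interval than over any later step, and the same held for all genes. Id3 had 21.9% of its log2 difference between days 15 and 2 by day 12, and Id4 stayed within 2-fold. At day 6 against day 2, Twist1 passed 2-fold upwards and Id2 and Twist2 downwards, so 1 and 2 members, where 10.2% and 5.70% of all genes did. At day 9 against day 2 these counts were again 1 and 2, against 15.1% and 10.3%. At day 12 against day 2 they were 1 and 3, with Id1 added, against 16.1% and 11.4%. Between consecutive days, 0 members differed 2-fold from day 6 to day 9 (background 5.87% higher and 4.06% lower). From day 9 to day 12, 1 was lower (1.72% higher and 1.51% lower in the background), and from day 12 to day 15, 1 was lower (4.23% and 3.92%). In both of these later steps it was Twist2. These comparisons share arrays, and the courses were known when the genes were chosen. Day 15 against day 6, which leaves out the day 2 array, gave 0 higher and 1 lower member, against 8.42% and 6.16% of all genes.

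**Figure D3:**
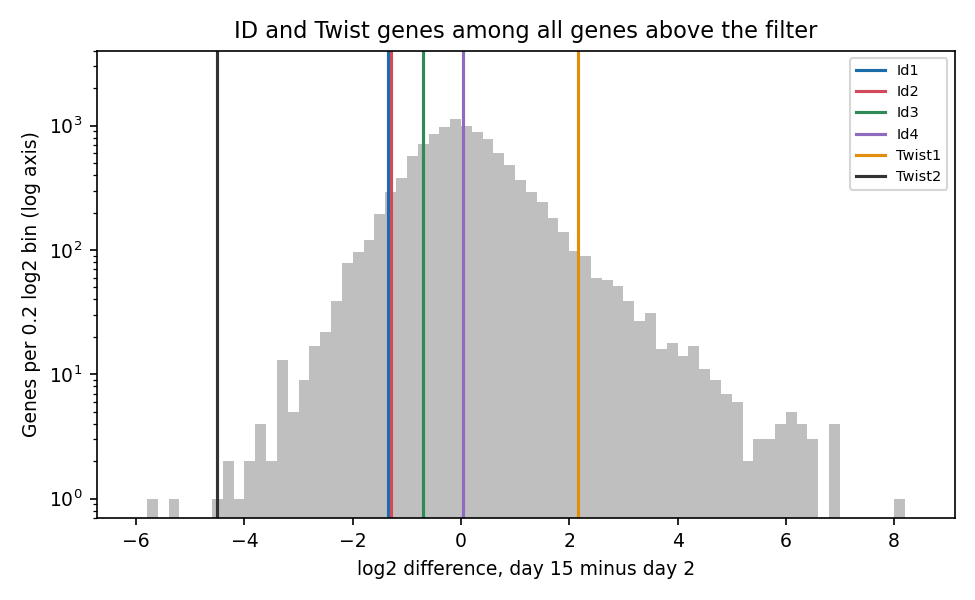
Number of genes (log axis) by log2 difference between day 15 and day 2 over the 11075 genes above the filter, with a line for each ID and Twist gene. Twist2 at -4.50 stands at the low end (a bound), Id1 and Id2 lie near -1.3, Id4 near 0 and Twist1 at 2.17.

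The genes with the courses most like the members were found by the root mean square distance between log2 courses, each centred on its own mean over the 5 arrays, among 11074 other genes. With so many genes and 5 points each, close matches are common, and the distances are a description. Nearest to Id1 were Rhno1, Entpd7, Nkrf and Ahctf1, at distances of 0.066, 0.072, 0.080 and 0.084, all between 2.26-fold and 2.65-fold lower at day 15. Nearest to Id2 were Mrpl1, Trpm6, Dnph1 and Zfp697, at 0.090 to 0.12. Nearest to Twist1 were Macroh2a3, Ap3m2, Ess2 and Pdk2, at 0.086 to 0.15, and Macroh2a3, Ap3m2 and Pdk2 were below the floor at day 2. Twist2 had no close neighbour by this distance, which also counts the size of the differences in a course. Its nearest genes, Grwd1, Pcolce2, Troap and Ndufaf4, lay 0.57 to 0.64 away and were between 6.61-fold and 10.3-fold lower at day 15. Their Pearson correlations with Twist2 over the 5 arrays were 0.99, 0.93, 0.98 and 0.92, so genes with a course of similar shape were present. No other member was among these nearest genes of Id1, Id2, Twist1 and Twist2. Id1 was 314th of 11074 in nearness to Id2, and Id2 1079th in nearness to Id1, at a distance of 0.29, and Twist2 was 11054th in nearness to Twist1, at 2.17.

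The E proteins, the partners of both ID and TWIST proteins, differed less than 2-fold between days 15 and 2. All 3 genes of the list were measured, and 0 passed 2-fold in either direction. Tcf3 had 528, 737, 730.1, 607 and 717 over the 5 days, Tcf4 1694, 4217, 2754, 2462 and 2058, and Tcf12 3789.7, 4466, 5129.6, 4915 and 3360.3. Tcf4 peaked at day 6, at a log2 difference of 1.32 from day 2, and at day 15 against day 6 this list had 1 gene at least 2-fold lower. The brightest probe sets gave log2 differences of 0.44 for Tcf3, 0.28 for Tcf4 and -0.17 for Tcf12, and the second probe sets -0.88, 0.95 and -0.43, so the sign for Tcf3 depends on the probe set. The list median was 0.28, where the median of all genes was 0.00, and it was -0.41 at day 15 against day 6.

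Other bHLH genes of the Twist family and its relatives gave little signal. Of 9 listed genes, Hand1, Hand2, Scx, Tcf21, Tcf23, Msc, Ferd3l and Ptf1a lay below the filter. The measured gene, Tcf15 (a factor of early somites), had 89.6 at day 15 and 109.5 at day 2, with its highest value, 217, at day 6. Among the Hes, Hey and Bhlhe4 repressors 4 of 11 were measured. Bhlhe40, a low-oxygen and clock-linked repressor, had 475, 380.5, 496, 589 and 2321 over the 5 days, ending 4.88-fold above its start, and most of that came between the last 2 arrays. Hes1, a Notch target, had 211 at day 15 against 446 at day 2, 2.11-fold lower, a difference under 2-fold with arrays centred on their medians or with a pseudocount, and Hes6 and Bhlhe41 were within 2-fold. The median of this list was 0.18.

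Of 19 listed ligands, receptors and SMAD genes 13 were measured, of which 4 passed 2-fold upwards and 2 downwards at day 15, against 16.2% and 11.6% of all genes, so the lower count is near the share over all genes. The list median was 0.36. With the mean over probe sets 2 passed upwards and the median was -0.05. The ligand gene Bmp4 had 2472 at day 15 against 175 at day 2, 14.1-fold higher, and had already reached 4145 at day 6. The receptor gene Acvrl1 was at least 3.36-fold higher (1.05-fold by its second probe set), the ligand gene Bmp6 at least 3.91-fold lower and the receptor gene Bmpr1b 2.68-fold lower. Bmp2 at 2.32-fold and Smad4, the shared SMAD partner, at 2.03-fold (1.28-fold by its second probe set) completed the higher genes and were picked for mention with their values in view.

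Of 11 BMP-induced and feedback genes outside the ID family 8 were measured, of which 3 passed 2-fold upwards and 3 downwards, beside 16.2% and 11.6% over all genes, and the list median was -0.50. Atoh8, a bHLH factor gene, had 796, 359, 238, 269 and 111 over the 5 days, ending 7.15-fold below its start. Smad7, an inhibitory SMAD, had 265 at day 15 against 1009.8 at day 2 by its brightest probe set, 3.81-fold lower, but was level by the second (log2 difference -0.07). Dlx3, picked for mention with its values in view, was at least 2.95-fold lower. The BMP antagonist gene Grem1 had 569.7, 2597, 2742, 3429.8 and 10299 over the 5 days, ending 18.1-fold above its start. Dlx5, a homeobox gene of osteoblasts, was at least 7.82-fold higher, and Bambi, a decoy receptor gene named after its values were seen, 2.21-fold higher. By their brightest probe sets Atoh8, Smad7 and Dlx3 were thus lower beside Id1 and Id2, while Dlx5, Bambi and Grem1 were higher. The second Dlx3 probe set was below the floor at days 2 and 15. With the mean over probe sets 3 genes of the list passed 2-fold upwards and 2 downwards.

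Mesenchyme and EMT regulators and cadherins were higher or little different. Of 9 measured genes 5 passed 2-fold upwards at day 15 and 0 downwards, where 16.2% and 11.6% of all genes did, and 2 passed upwards with the mean over probe sets. The list median was 1.14, and it was 0.45 with that mean and 0.26 at day 15 against day 6. The mesenchymal cadherin gene Cdh11 had 348, 4179.7, 12605, 14828 and 7216 over the 5 days, ending 20.7-fold above its start. Zeb2 was 6.12-fold, the N-cadherin gene Cdh2 2.62-fold and Zeb1 2.54-fold higher, but all 3 were under 2-fold by their second probe sets (log2 differences 0.89, 0.54 and 0.11). Prrx1, a limb mesenchyme homeobox gene named after its values were seen, was 2.21-fold higher, and 1.32-fold by its second probe set. Of the 5 genes only Cdh11 thus passed 2-fold on its second probe set too. Among bone regulators tied to TWIST proteins 2 of 6 measured genes (1 with the mean over probe sets) passed 2-fold upwards and 0 downwards, beside 16.2% and 11.6% over all genes, the list median was 0.57, and Runx2 itself had no probe set of its own. The osteoblast factor gene Sp7 had 170.3, 230.0, 417, 586 and 828 over the 5 days, 4.86-fold higher at the end, and Runx1 was 3.35-fold higher. Runx3 was 1.59-fold higher (but -0.71 on the log2 scale by its second probe set) and Fgfr2 1.37-fold higher (2.05-fold by its second probe set). On its brightest probe set Fgfr2 peaked at day 9 with 5395, against 1432 at day 2.

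Cell cycle genes tied to ID proteins were mixed, with 4 of 14 measured genes past 2-fold upwards and 0 downwards, against 16.2% and 11.6% of all genes, and a list median of -0.17. With the mean over probe sets 2 were higher and 1 lower. Cdkn2b, the p15 inhibitor, had 375, 987, 2175, 2170.4 and 2872 over the 5 days, ending 7.66-fold above its start. Cdkn1c was 4.38-fold higher, Cdkn1b 2.30-fold higher (but -0.28 on the log2 scale by its second probe set), and Rbl2, of the retinoblastoma family, 2.15-fold higher (1.59-fold by its second probe set). Cdkn1a, the p21 inhibitor, named with its values in view, was 1.85-fold lower, and 4.75-fold lower by its second probe set, so inhibitor genes lay in both directions. The proliferation genes, picked for mention with their values in view, were all lower at day 15 but within 2-fold by their brightest probe sets. Mki67, Top2a, Pcna and Ccna2 had log2 differences of -0.69, -0.78, -0.63 and -0.44, and Ccne1 and Ccnd1 of -0.62 and -0.37. By second probe sets Ccne1 was past 2-fold at -1.37, Ccna2 was -0.94, Ccnd1 -0.91 and Top2a 0.13.

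**Figure D4:**
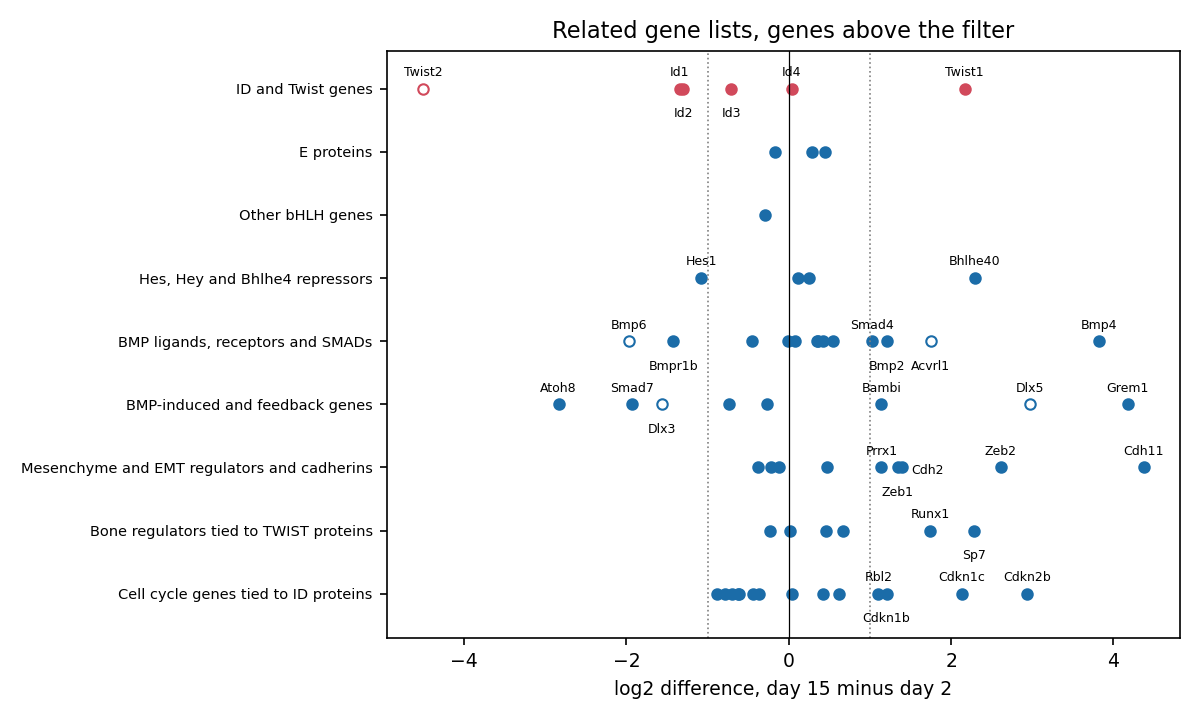
Log2 difference between day 15 and day 2 for each gene above the filter in the ID and Twist set (red) and 8 related lists (blue); open circles are bounds and dotted lines mark 2-fold, with genes past it named. The E proteins cluster near 0, the BMP-induced genes lie on both sides, and Twist1 and Twist2 lie apart.

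Markers of cell types were read on the same arrays. Of 6 chondrocyte markers 5 were at least 2-fold lower at day 15, and their summed intensity was 120022, 106466, 62213, 28774 and 40289.8 over the 5 days, with each marker above the floor on every array. Matn1, a cartilage matrix gene, was the exception at 3.50-fold higher. All 5 osteoblast markers with a probe set, Ibsp, Sp7, Col1a1, Dmp1 and Alpl, were higher, with sums of 774, 8209, 30705, 52258 and 78071.5. Fibroblast markers were at least 2-fold higher in 4 of 5, with sums between 22793 and 76447 on the later days against 6364 at day 2. The other, Pdgfra, was 1.48-fold higher. The 3 adipocyte markers with a probe set were all higher, with sums of up to 55749.7, at day 12, against 398 at day 2. Of 4 measured smooth muscle and pericyte markers 4 were at least 2-fold higher, with sums between 23042 and 38905 on the later days against 9239.6 at day 2. The second probe sets of Acta2 and Rgs5 lay below or little above the floor at days 2 and 15 and showed no 2-fold difference. Of 3 measured epithelial markers 2 were lower, with list sums of 2631, 690.3, 629, 612 and 583 that were led by Krt18. Krt18 had 103 at day 15 against 2052 at day 2, 19.9-fold lower, and Krt8 was 2.14-fold lower, while Epcam was 1.32-fold higher. Cdh1, which defines epithelium, had 77.6, 94.8 and 97.0 at days 6, 9 and 12, little above the floor, and was below it at days 2 and 15. Of 3 measured Schwann and glial markers 1, Fabp7, was at least 2-fold lower, with list sums of 1560.2 at day 15 and 3319 at day 2. Among 5 endothelial and 5 skeletal muscle markers 0 and 1 passed the filter, with sums of at most 409 and 1009, and Pecam1, which defines endothelium, was below the floor on every array. Of 5 macrophage markers 4 passed it, with sums between 581 and 1062 over the 5 days. By their brightest probe sets all 4 were within 2-fold at day 15 against day 2. Csf1r was more than 2-fold below day 2 at days 6 and 9 (log2 differences -1.15 and -1.29). So was Adgre1 at day 9, where it lay below the floor (-1.08, a bound). By its second probe set Csf1r was 3.32-fold higher at day 15. The part of these cell mixtures in the ID and Twist courses was not tested.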

How the data were processed

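Total RNA from 5 cultures was read on 1-colour arrays. The authors deposited probe-set intensity values on a linear scale. Per the submitters' processing notes MAS5 produced them, and its version is not given in the sources used here. After trimming 2% at both ends every array had a mean of 500.0, so deposited values are relative to the average of their array.

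Probe sets took gene symbols from the platform annotation, updated through a RefSeq table of GRCm38.p6, and 34945 of 45101 carried 1 symbol. Intensities under 73.1, the 40th percentile, were raised to this floor, and differences with 1 day at the floor are written "at least". The brightest probe set stood for its gene, which was kept when its mean reached 105.93, the median of probe sets other than controls. Differences were counted at 2-fold, without a test. A straight-line trend over the 5 days could be fitted but was not, since members and lists were chosen with earlier results of these data known. Every E protein, the 4 largest differences in each other list and the 4 genes nearest in course to each member varying at least 2-fold were named. Calculations were tested on simulated data, with Python 3.11.15, pandas 2.3.3, numpy 2.4.6, scipy 1.17.1 and matplotlib 3.10.9. Array medians ranged from 106 to 118 and the Actb control probe sets had ratios of 3' to 5' signal from 1.17 to 1.27. Protein sequences were not used here.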

Additional observations from a re-analysis of the deposited data

How the results depend on the processing

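Over 12 alternatives (scaling, floor, pseudocount, probe-set rule, filter and days compared), Id3 stayed between -0.71 and -0.15 on the log2 scale and Id4 between -0.47 and 0.17. For Id3, bright and with 1 probe set, the choices of floor, filter and probe-set rule could not move the value. Its -0.15 came from day 12 against day 2. At day 15 against day 6, Id2 reversed to 0.16, Id1 was -0.56, Twist1 0.57 and Twist2 -1.91, 0 members were at least 2-fold higher and 1 lower, and the list medians were -0.41 for E proteins, -1.28 for Twist relatives, 1.07 for Hes, Hey and Bhlhe4 repressors and 0.26 for mesenchyme regulators; 932 genes were higher and 682 lower. With days 12 and 15 pooled against days 2 and 6, Twist1 was 1.16 and Twist2 -2.43, 1 member was lower, and 1091 and 622 genes were higher and lower. At day 12 against day 2, Twist2 was -2.94. As a bound, Twist2 moves with the floor: -3.19 with the floor at the 60th percentile and -3.66 with a pseudocount. A filter at the 70th percentile left 1159 higher and 783 lower genes and medians of 1.20 for the Hes list and 0.44 for BMP-induced genes, and the mean over probe sets gave 0.45 for mesenchyme regulators. Centring arrays on their medians moved the median of all genes to 0.14. Of 176 list counts, 146 were unchanged or stayed within 1.5 times and 30 did not. The 146 include counts of 0 that stayed 0, as for the E proteins, so they say little of stability. Id1, Id3, Twist1 and Twist2 have 1 probe set each, so no second probe set checks them, and the spread between probe sets leaves out variation between dishes and arrays. No paired analysis was possible because each day has a single array and the labels give no replicate numbers.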
